A study of Homo sapiens with 18 samples.

Results

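Counts were followed for 4 genes, *SCG5*, *FXYD6*, *ABTB3* and *SEMA6B*, out of the 57500 genes in the count tables. They were chosen by their measured fold change after knockdown of *DNAJC17* in Rh30 cells, or by how far that change differed from the one in a second cell line, ES8, among genes known from nerve and secretory cells. Both contrasts are therefore given as a description without a test. Earlier results of these data were known when the genes were picked, so the picks are no independent evidence. The rule itself did not use values from the other conditions, above all from the cells that express DNAJC17 without its RRM. In Rh30, comparisons of those cells with control or knockdown cells still share libraries with the choice. Genes were picked for a large knockdown change, so a move back from the knockdown level is favoured for each of them.

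RNA was sequenced from 18 libraries of 2 cancer cell lines, the alveolar rhabdomyosarcoma line Rh30 and the Ewing sarcoma line ES8. All cells carried dCas9-KRAB, the CRISPRi repressor that an sgRNA guides to a promoter. Parental cells of each line received a control sgRNA (sgCTL, with a GFP marker) or an sgRNA against the start of *DNAJC17* (sgDNAJC17, with a BFP marker). A further population of each line stably expressed the cDNA 3xFLAG-DNAJC17-dRRM from an EF1 promoter, under hygromycin selection, and then received sgDNAJC17 (called ΔRRM cells here). All groups had 72 hours of puromycin and 3 replicates, A, B and C, which were plated in triplicate, so the spread between them may be technical. ΔRRM cells with sgCTL were not analysed here, so the effects of the cDNA, of the separate selection and of the knockdown cannot be told apart in the ΔRRM libraries. DNAJC17 is a J-domain cochaperone that ends in an RNA recognition motif (RRM) and has been tied to pre-mRNA splicing. The comparisons ask which genes depend on DNAJC17, whether both lines respond alike, and whether the protein without its RRM is enough to hold the level of a gene.

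The 4 proteins have different jobs. *SCG5* encodes 7B2, a small secretory granule protein that binds the prohormone convertase PC2 (*PCSK2*) and helps it mature in neuroendocrine cells. *FXYD6* encodes phosphohippolin, a single-pass membrane protein of the FXYD family that regulates the sodium pump and is abundant in brain. *ABTB3*, formerly *BTBD11*, encodes a protein with ankyrin repeats and a BTB domain that is found at synapses of inhibitory interneurons. *SEMA6B* encodes a transmembrane semaphorin of class 6, a guidance ligand that class A plexins on other cells recognise.

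The label was checked in *DNAJC17* first. In the order of replicates A, B and C, the Rh30 libraries held 474, 522 and 461 counts on *DNAJC17* with sgCTL and 113, 81 and 104 with sgDNAJC17. The ES8 libraries held 559, 583 and 625 counts with sgCTL and 59, 77 and 67 with sgDNAJC17. ΔRRM libraries held 9849 to 13947 counts in Rh30 and 13295 to 14449 in ES8, which include reads from the cDNA, so the endogenous transcript cannot be read in them. Library totals ran from 35342393 to 48245989 counts. Of 17 neuronal markers, a single marker reached 1 CPM (counts per 1000000 counts, with library sizes scaled by the TMM method) in Rh30 and 11 did so in ES8, so most neuronal markers were near absent from Rh30 and the name neural rests on what the 4 genes are known for. The 12 skeletal muscle and rhabdomyosarcoma markers summed to 3679 to 3801 CPM in Rh30 sgCTL libraries, 3102 to 3362 with sgDNAJC17 and 2397 to 2661 in ΔRRM libraries, against 66.0 to 97.2 over all ES8 libraries.

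The genes lie on different chromosomes. Coordinates are those of the count tables, which use GRCh38. *SCG5* (ENSG00000166922) lies on the plus strand at chr15:32641676-32697098 with 2196 exonic bases. *FXYD6* (ENSG00000137726) lies on the minus strand at chr11:117836976-117877486 with 5137 exonic bases, of which 1015 (19.8%) are shared with the read-through gene *FXYD6-FXYD2* and the antisense gene *FXYD6-AS1*. These 2 genes held at most 2 counts in any Rh30 library and at most 17 in any ES8 library. *ABTB3* (ENSG00000151136) lies on the plus strand at chr12:107318413-107659642, a span of 341230 bases that is longer than that of 96.7% of protein-coding genes, with 7924 exonic bases. *SEMA6B* (ENSG00000167680) lies on the minus strand at chr19:4542593-4559808 with 4412 exonic bases and shares none of them with another gene. Promoter sequence was at hand for *SCG5*, *FXYD6* and *ABTB3* from RefSeq (GRCh38.p14), as windows from 250 bases before to 50 bases after each start, and was searched on both strands for the E-boxes CACGTG and (preferred by myogenic factors) CAGCTG, the TATA motif TATAAA, the GC box GGGCGG, the core TGACG of cyclic AMP response elements and the CCAAT box. A 30-base stretch around a motif is shown for each as an example, in the direction of transcription, with the motif in capitals. Which start these cells use was not tested.
SCG5, GC box GGGCGG, chr15:32641655-32641684, plus strand: gaggaggggccgGGGCGGagctaagatgcg
FXYD6, E-box CACGTG, chr11:117877507-117877536, minus strand: tcaccattttccCACGTGaggaaatagact
ABTB3, GC box GGGCGG, chr12:107318265-107318294, plus strand: ggcgtgtgtgagGGGCGGggccgcatgggg

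GGGCGG was found in 45.0% and CACGTG in 7.26% of all 35116 promoter windows. GGGCGG was found in at least 1 window of each of the 3 genes, and in *FXYD6* it lay at another start than the CACGTG. The motifs shown overlapped none of the others searched. TATAAA (11.5% of all windows) and CAGCTG (17.9%) were not found in the windows of these genes. TGACG (24.6%) was found in *SCG5* and *FXYD6*, and CCAAT (34.6%) in *FXYD6* and *ABTB3*. These matches are a description of letters.

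*SCG5* was the member with a higher level after knockdown. Rh30 libraries held 128, 122 and 122 counts with sgCTL and 417, 404 and 395 with sgDNAJC17. Every knockdown library thus lay above every control library, at 2.94 ± 0.190 CPM (SD, n = 3) with sgCTL and 10.2 ± 0.849 CPM (SD, n = 3) with sgDNAJC17. The log2 fold change was 1.81 (SE 0.12), or 3.51-fold. By size it ranked 28 of the 118 genes called higher, and 2 of the 15 with a mean of at least 100 counts. The contrast chose the gene, so nothing is read from these ranks. In ΔRRM libraries, 321, 246 and 219 counts gave 7.56 ± 1.19 CPM (SD, n = 3), between the other 2 groups and overlapping neither. In bulk RNA, fewer cells with a transcript and less of it per cell cannot be told apart.

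The ΔRRM level of *SCG5* was closer to that of the knockdown than to the control. Against sgCTL, whose libraries also served in the choice of the genes (as did those with sgDNAJC17), it was 2.64-fold higher (log2 1.40, SE 0.13, edgeR adjusted p = 1.71e-14). Against sgDNAJC17, it was lower by a small margin (log2 fold change -0.42, SE 0.12, adjusted p = 0.00125). Of the gap between the knockdown and control means, 36.5% was closed in ΔRRM cells. In ES8, *SCG5* was near the limit of detection, with 4, 4 and 5 counts with sgCTL, 4, 8 and 14 with sgDNAJC17 and 10, 8 and 5 in ΔRRM libraries, and it did not pass the filter on low counts for a test within that line.

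*FXYD6* was lower after knockdown in Rh30 and overlapped the control in ΔRRM cells. The Rh30 sgCTL libraries held 158, 158 and 176 counts and the sgDNAJC17 libraries 56, 24 and 32. This came to 3.88 ± 0.261 CPM (SD, n = 3) and 0.913 ± 0.305 CPM (SD, n = 3), with no overlap and a 4.13-fold lower level after knockdown (log2 -2.05, SE 0.20). The ΔRRM libraries held 165, 154 and 114 counts, or 4.14 ± 0.331 CPM (SD, n = 3), all above the knockdown libraries and overlapping those with sgCTL. ΔRRM cells exceeded knockdown cells by 4.49-fold (log2 2.17, SE 0.20, edgeR adjusted p = 4.57e-16). The sgDNAJC17 libraries in this comparison served in the choice of the gene, which favours a move back from them. The difference of ΔRRM cells from sgCTL was 0.13 on the log2 scale (SE 0.14, adjusted p = 0.400). It took the other sign, at -0.10, with scaling by library size alone.

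ES8 had far more *FXYD6* than Rh30 in every condition. Counts there were 2932, 2571 and 2874 with sgCTL, 2233, 2049 and 2239 with sgDNAJC17 and 2637, 3110 and 2776 in ΔRRM libraries. The means of 56.6 ± 1.88, 54.4 ± 3.98 and 61.7 ± 4.06 CPM (SD, n = 3 each) lay close together, although each ΔRRM library was above each control library. The knockdown gave a log2 fold change of -0.08 (SE 0.07) in ES8, and ΔRRM against sgCTL gave 0.12 (SE 0.07, edgeR adjusted p = 0.458). The knockdown value was thus near 0 in the line with the higher level.

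*ABTB3* was lower after knockdown in Rh30 and lay between the other groups in ΔRRM cells. The Rh30 libraries held 269, 281 and 223 counts with sgCTL, 79, 55 and 39 with sgDNAJC17, and 180, 163 and 124 in ΔRRM cells. The 3 groups did not overlap, at 6.10 ± 0.748, 1.43 ± 0.376 and 4.47 ± 0.396 CPM (SD, n = 3 each). The knockdown level was 4.19-fold lower than the control (log2 -2.07, SE 0.17). This drop ranked 6 of the 121 genes called lower, and 2 of the 36 with a mean of at least 100 counts. The contrast chose the gene, so nothing is read from these ranks. ΔRRM cells lay 3.13-fold above the knockdown (log2 1.65, SE 0.18, edgeR adjusted p = 5.63e-13) and fell short of the control (log2 -0.41, SE 0.13, adjusted p = 0.00339, and -0.65 with scaling by library size alone). The sgDNAJC17 and sgCTL libraries in these comparisons served in the choice of *ABTB3*, which favours a move back from the knockdown. In ES8, the libraries held 59, 56 and 66 counts with sgCTL, 45, 45 and 61 with sgDNAJC17 and 37, 49 and 42 in ΔRRM cells, that is 1.22 ± 0.0670, 1.25 ± 0.146 and 0.925 ± 0.111 CPM (SD, n = 3 each). The ES8 knockdown value was 0.01 (SE 0.18) on the log2 scale, and ΔRRM against sgCTL gave -0.41 (SE 0.21, edgeR adjusted p = 0.406). The Rh30 knockdown libraries, at 1.02 to 1.76 CPM, therefore overlapped the ES8 libraries, whereas Rh30 control cells stood well above them.

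*SEMA6B* was the most abundant member in Rh30. Its Rh30 libraries held 1885, 1990 and 1765 counts with sgCTL, 776, 600 and 505 with sgDNAJC17, and 1195, 998 and 982 in ΔRRM cells. The means of 44.5 ± 2.63, 15.6 ± 2.14 and 30.7 ± 4.13 CPM (SD, n = 3 each) came from groups with no overlap, and the knockdown level was 2.82-fold lower (log2 -1.49, SE 0.09). ΔRRM cells lay 1.98-fold above the knockdown (log2 0.98, SE 0.10, edgeR adjusted p = 5.22e-15), just under the 2-fold requirement, which was passed without library A or B of sgDNAJC17 (log2 1.05 and 1.02) or library B of the ΔRRM cells (1.10). They stayed below the control (log2 -0.50, SE 0.08, adjusted p = 3.59e-08). Knockdown and control libraries both served in the choice of *SEMA6B*, so a move back from the knockdown is favoured here too. In ES8, counts of 3010, 3056 and 3219 with sgCTL, 3152, 2573 and 2774 with sgDNAJC17 and 2326, 2773 and 2467 in ΔRRM cells gave 62.9 ± 2.56, 71.1 ± 10.6 and 54.7 ± 3.86 CPM (SD, n = 3 each). The knockdown log2 fold change there was 0.15 (SE 0.10), with library A above the other libraries at 83.3 CPM, and 0.02 without that library.

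**Figure D1:**
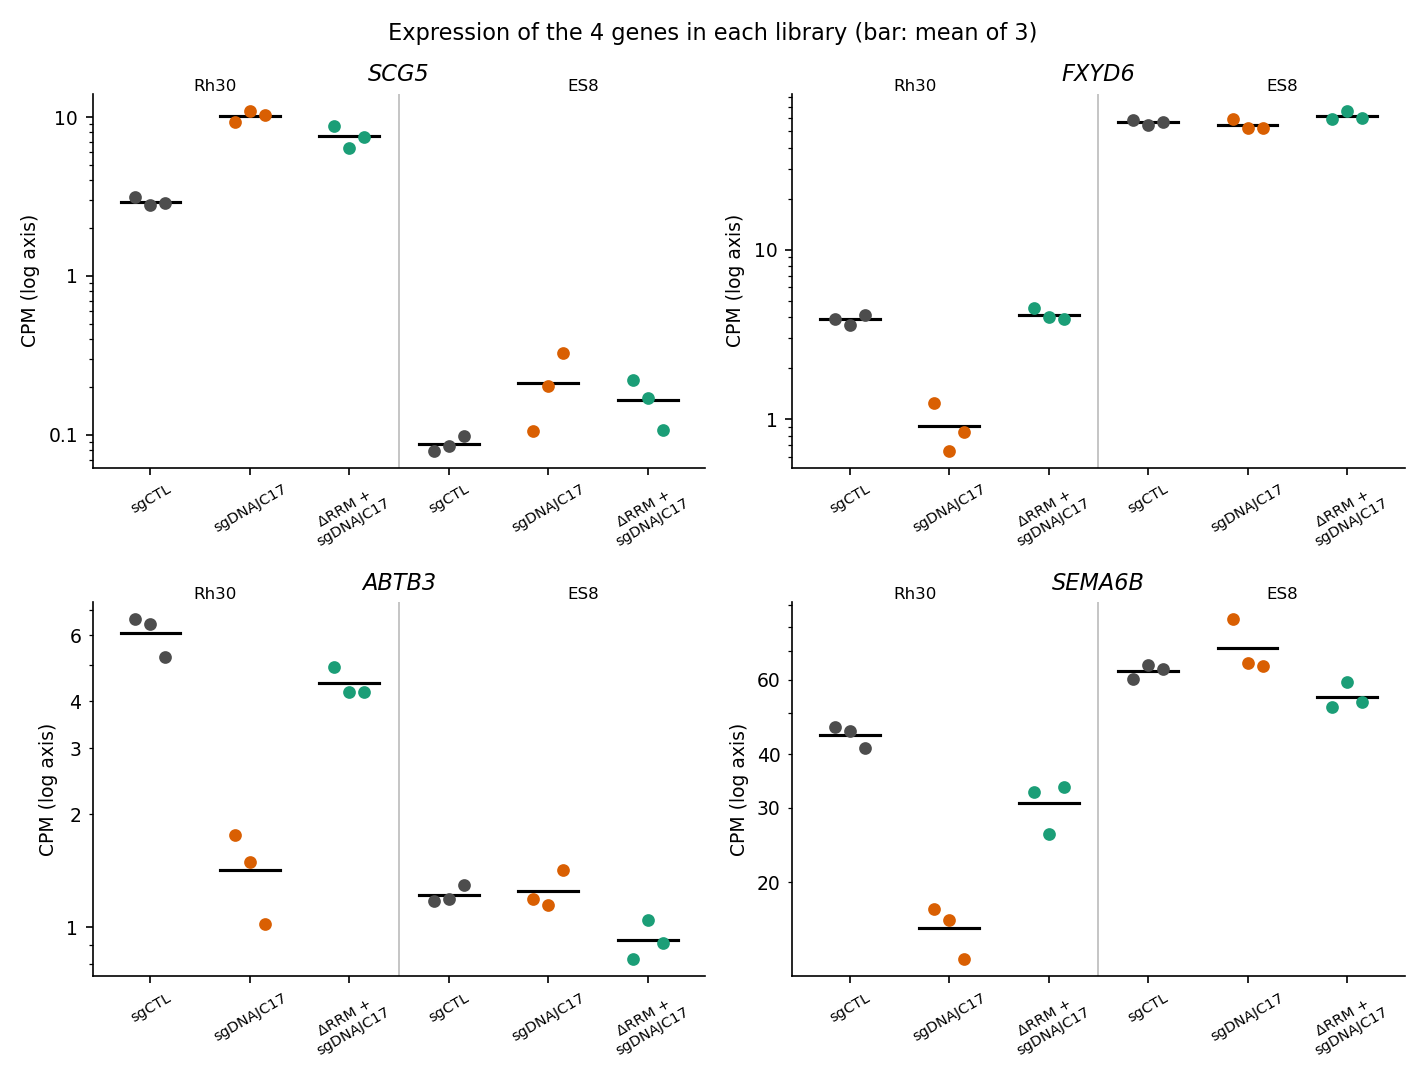
CPM (log axis, TMM scaled) of each gene in each of the 18 libraries, as points for replicates A, B and C from left to right and a bar at the mean of 3. In Rh30, *FXYD6*, *ABTB3* and *SEMA6B* were lowest with sgDNAJC17 and *SCG5* was highest, while ES8 had little *SCG5* and *ABTB3* and 54.4 to 61.7 CPM of *FXYD6*.

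The genes differed in how far the ΔRRM cells stood from the knockdown. As a share of the mean sgCTL level in Rh30, *FXYD6* was at 23.5% after knockdown and 107% in ΔRRM cells. *ABTB3* was at 23.4% and 73.3%, and *SEMA6B* at 35.1% and 69.1%. *SCG5* was at 348% and 257%. The share of the knockdown-to-control gap that was closed in ΔRRM cells, where a value over 100% lies past the control, was 109% for *FXYD6*, 65.1% for *ABTB3*, 52.4% for *SEMA6B* and 36.5% for *SCG5*. Scaling by library size alone gave 90.8%, 53.1%, 39.5% and 47.8%, so that *SCG5* stood above *SEMA6B*. That scaling lowered all Rh30 ΔRRM values, with a median log2 fold change of -0.25 against sgCTL over the 15442 genes tested, compared with -0.01 under TMM.

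**Figure D2:**
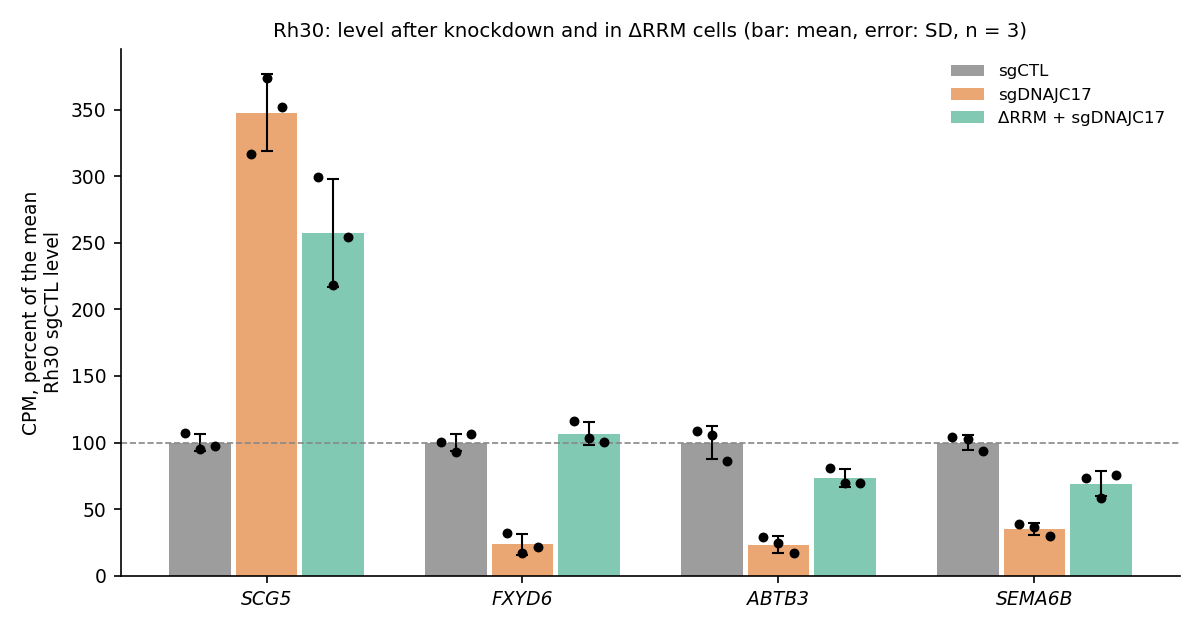
CPM in Rh30 as a percent of the mean sgCTL level, with bars for the mean, error bars for the SD and points for the 3 libraries of each group. *FXYD6* was at 23.5% after knockdown and 107% in ΔRRM cells, *ABTB3* and *SEMA6B* stood at 73.3% and 69.1% in ΔRRM cells, and *SCG5* stayed at 257%.

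A gene was called at an adjusted p under 0.05 with a fold change of at least 2. All 4 members were called in the Rh30 knockdown, the contrast that chose them, in which 1.55% of 15391 genes were called and 44.3% had groups without overlap. *SCG5* was the sole member called in ΔRRM cells against sgCTL (1 of 4), where 9.97% of 15442 genes were called. *FXYD6* and *ABTB3* were called in ΔRRM against knockdown cells (2 of 4), where 7.79% of 15309 genes were. Over all genes, 1028 were called higher and 512 lower in ΔRRM cells against sgCTL, and 422 higher and 1476 lower with scaling by library size alone. Against the knockdown the same counts were 677 and 515, and 391 and 850. Without the fold requirement, 3 and 4 of the 4 passed in these comparisons, against 68.8% and 60.0% of all genes. Groups without overlap were also common, at 71.5% of genes for ΔRRM against sgCTL (3 of 4 members) and 64.2% for ΔRRM against knockdown (4 of 4). The members' counts without the fold requirement were therefore of the kind that most genes showed.

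**Figure D3:**
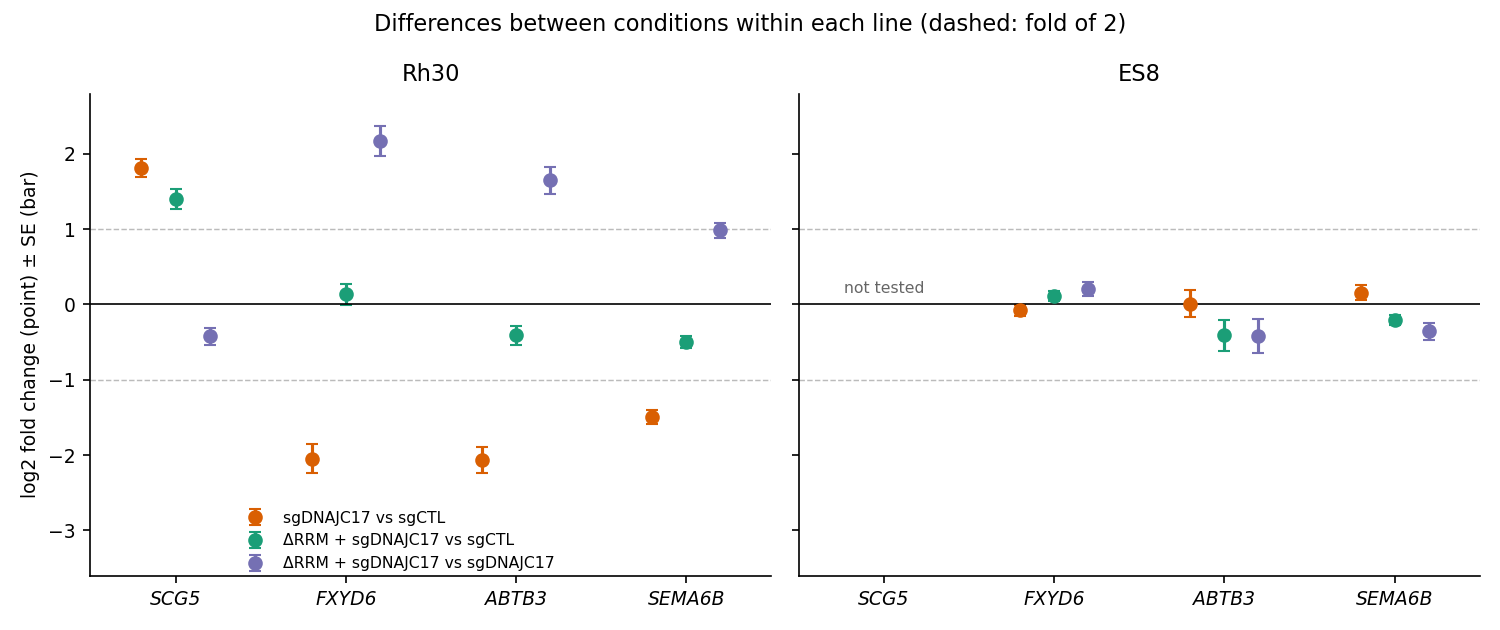
Log2 fold changes (points) with SE (bars) of the 4 genes in Rh30 (left) and ES8 (right) for knockdown against control, ΔRRM against control and ΔRRM against knockdown. In Rh30, *FXYD6* moved by -2.05, 0.13 and 2.17, while the ES8 points of the 3 genes tested lie between -0.41 and 0.20.

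In ES8, 3 of the 4 genes had knockdown values far from those in Rh30. The difference between the lines in the knockdown effect, Rh30 minus ES8, was -1.94 (SE 0.19) for *FXYD6*, -2.06 (SE 0.27) for *ABTB3* and -1.63 (SE 0.15) for *SEMA6B* on the log2 scale, and 0.59 (SE 0.54) for *SCG5*. The *SCG5* value rests on few ES8 counts and was 0.30 without ES8 sgDNAJC17 library A and 1.05 without library C. By its p, *SEMA6B* held rank 3, *FXYD6* rank 5, *ABTB3* rank 21 and *SCG5* rank 9928 of 18899 genes, of which 9.78% were called, here by an adjusted p under 0.05 alone. This contrast helped choose the genes, so nothing is read from these ranks. *DNAJC17* itself was left at 2.48 ± 0.261 CPM in Rh30 and 1.69 ± 0.233 CPM in ES8 (SD, n = 3 each), and the part of this gap in the line difference was not tested. A choice by the line difference favours genes with a small change in ES8, so the ES8 knockdown values of the 3 members tested, -0.08 to 0.15, are no test of their response (1.95% of 17143 genes were called there). Within ES8, none of the 3 members tested was called in ΔRRM against sgCTL or against knockdown cells by edgeR or DESeq2, with 1 of 3 at an unadjusted p under 0.05 in each. That gene was *SEMA6B*, with log2 fold changes of -0.21 (edgeR adjusted p = 0.290) and -0.36 (adjusted p = 0.0521), the latter -0.22 without ES8 sgDNAJC17 library A. Of all genes, 0.0349% and 1.97% were called in these comparisons. In the first, ΔRRM and sgCTL libraries did not overlap for the 3 members tested, against 20.8% of genes tested, with *FXYD6* higher and *ABTB3* and *SEMA6B* lower in ΔRRM libraries.

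The effect of ΔRRM with sgDNAJC17 against sgCTL was also compared between the lines. None of the 4 members was called by edgeR, with *SEMA6B* at an unadjusted p under 0.05, against 41.4% of 18854 genes. For *SEMA6B*, Rh30 minus ES8 was -0.29 (SE 0.12, edgeR adjusted p = 0.0530), and DESeq2, another scaling or a replicate block gave a call with values between -0.51 and -0.29, while it was -0.18 without Rh30 ΔRRM library B. *FXYD6* gave 0.02 (adjusted p = 0.969). The sgCTL libraries in this contrast also took part in choosing the genes.

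The lines differed in the level of each gene. ΔRRM cells carried the cDNA and sgDNAJC17, so their values are no starting level, which is that of the sgCTL libraries given after them. In ΔRRM libraries, whose values the rule of choice did not use, *SCG5* was 43.2-fold higher in Rh30 than in ES8 (log2 5.43, SE 0.25). This is given without a test because the gene passed the filter through its Rh30 level and so had to differ. *ABTB3* was 4.68-fold higher in Rh30 (log2 2.23, SE 0.19, edgeR adjusted p = 5.65e-09). *FXYD6* was 15.3-fold lower in Rh30 (log2 -3.94, SE 0.11, adjusted p = 1.37e-15), and *SEMA6B* was lower by 1.84-fold (log2 -0.88, SE 0.10, adjusted p = 3.54e-07). Of these 3 genes, *ABTB3* and *FXYD6* were called, in a contrast where 58.6% of all genes were. In sgCTL libraries the differences were 4.99, 2.29, -3.89 and -0.53 on the log2 scale in the same order (*SCG5*, *ABTB3*, *FXYD6*, *SEMA6B*), from libraries that took part in the choice, with 50.9% of genes called. Scaling by library size alone brought *SEMA6B* past the fold requirement in ΔRRM libraries, at -1.25.

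Per kilobase of exon, the control level in Rh30 was highest for *SEMA6B*, at 10.1 ± 0.596 CPM per kb, followed by *SCG5* at 1.34 ± 0.0866, *ABTB3* at 0.769 ± 0.0944 and *FXYD6* at 0.755 ± 0.0508 (SD, n = 3 each). The last 2 did not differ beyond their spread. After knockdown, *SCG5*, at 4.65 ± 0.387 CPM per kb, exceeded *SEMA6B*, at 3.54 ± 0.485. In ES8 control cells, *SEMA6B* (14.2 ± 0.580) and *FXYD6* (11.0 ± 0.365) stood above *ABTB3* (0.154 ± 0.00846) and *SCG5* (0.0400 ± 0.00438) by the same measure.

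Among the relatives of *SEMA6B*, *SEMA6A*, another transmembrane semaphorin of class 6, fell with it in the Rh30 knockdown, from 387, 320 and 402 counts to 189, 100 and 130 (log2 -1.32, SE 0.15, edgeR adjusted p = 5.23e-05). ΔRRM libraries held 280, 266 and 223 counts of *SEMA6A*, above the knockdown (log2 1.10, SE 0.14, adjusted p = 7.82e-11) with a difference from the control that missed the threshold (log2 -0.21, SE 0.11, adjusted p = 0.0863). In ES8, the knockdown gave *SEMA6A* a log2 fold change of -0.00 (adjusted p = 0.989), and the difference between the lines was -1.29 (SE 0.18, adjusted p = 0.000258). *SEMA6A* thus had the same order of groups as *SEMA6B*.

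*PLXNA4*, a class A plexin that binds class 6 semaphorins, had a lower fold change than either ligand, a gap that was not tested. Its Rh30 libraries held 1156, 1178 and 1152 counts with sgCTL, 397, 243 and 289 with sgDNAJC17, and 571, 709 and 594 in ΔRRM cells. The knockdown gave a log2 fold change of -1.82 (SE 0.10, edgeR adjusted p = 5.13e-08), and ΔRRM cells stood above it (log2 1.24, SE 0.11, adjusted p = 3.74e-17) and below the control (log2 -0.57, SE 0.08, adjusted p = 9.65e-09). ES8 held 0 to 14 counts of *PLXNA4* per library, too few for a test of its response.

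Several other members of these families had other orders of the groups. *SEMA6C* also fell in the Rh30 knockdown (log2 -0.59, SE 0.12, edgeR adjusted p = 0.00202), but it fell further in ΔRRM cells against sgCTL (log2 -1.19, SE 0.11, edgeR adjusted p = 2.56e-14) and lay below its knockdown level (log2 -0.61). *PLXNA2*, a receptor of *SEMA6A*, gave -0.17 after knockdown (adjusted p = 0.104) and fell in ΔRRM cells (log2 -1.59, SE 0.09, adjusted p = 1.03e-23). *PLXNC1*, a receptor of the class 7 semaphorin, rose in ΔRRM cells (log2 1.19, SE 0.21, adjusted p = 1.30e-06, and 0.96 with library size alone, under the fold requirement). *PLXNA1* fell after knockdown in both lines, by -0.85 in Rh30 and -0.73 in ES8 (edgeR adjusted p = 6.90e-05 and 0.00055), with a line difference of -0.09 (SE 0.15, adjusted p = 0.775).

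**Figure D4:**
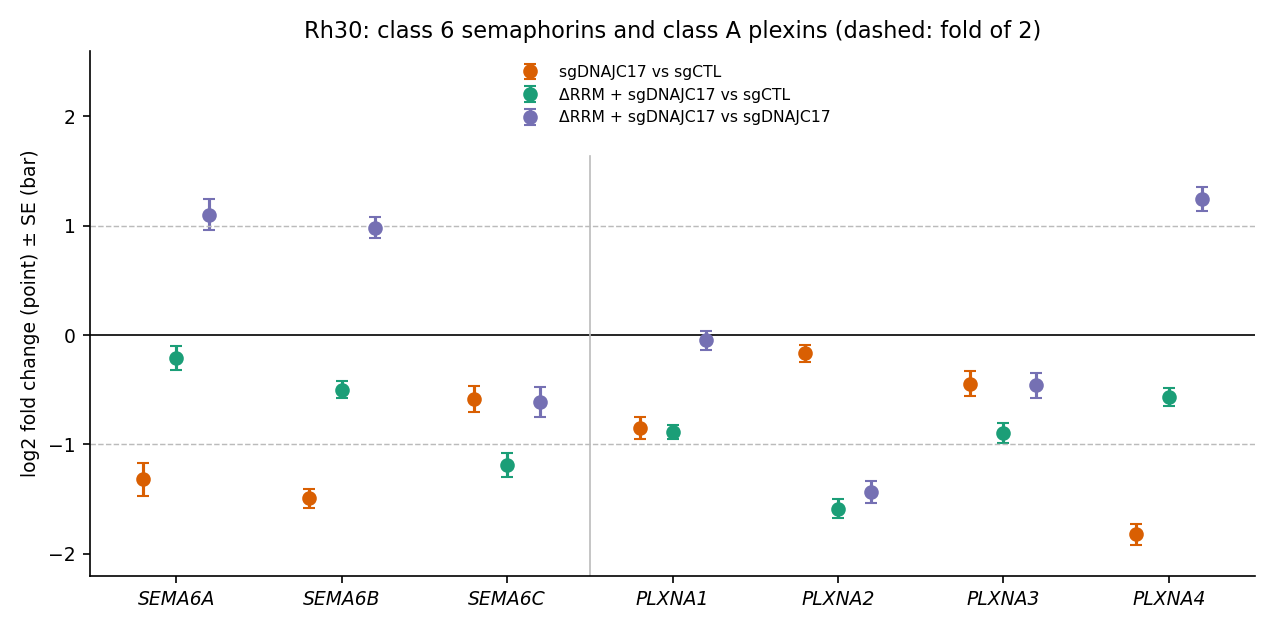
Log2 fold changes (points) with SE (bars) in Rh30 of the class 6 semaphorins (left) and class A plexins (right) for the same 3 comparisons. *SEMA6A*, *SEMA6B* and *PLXNA4* were lower after knockdown (-1.32, -1.49 and -1.82) and higher in ΔRRM than in knockdown cells (1.10, 0.98 and 1.24), whereas *PLXNA2* was at -0.17 and -1.43.

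Gene lists were counted at an adjusted p under 0.05, a threshold that 32.3% of all 15391 genes passed in the Rh30 knockdown, 2473 of them higher and 2501 lower. Of the 20 semaphorin genes listed, 16 were tested in the Rh30 knockdown, and 1 rose and 8 fell at an adjusted p under 0.05 (2 of them, *SEMA6A* and *SEMA6B*, with a fold change of at least 2, *SEMA6B* having been chosen on this contrast). Of 24 receptors and effectors, 22 were tested, and 1 rose and 12 fell, with *PLXNA4* alone past the fold requirement. The median log2 fold change was -0.29 for the semaphorins without *SEMA6B* and -0.28 for the receptors, against 0.00 over all genes tested. In ΔRRM against sgCTL the medians were -0.45 and -0.66, with 20 of 22 receptor genes lower at an adjusted p under 0.05. Of all 15442 genes tested in that contrast, 68.8% passed the threshold in some direction, 5216 of them higher and 5410 lower. Under library size alone the median of all genes moved by less than 0.1 in the knockdown and to -0.25 in ΔRRM cells, so directions of the listed groups in ΔRRM cells are relative to that shift. The receptors also fell in the ES8 knockdown, at a median of -0.30 against -0.02 over all genes. Of 23 tested there, 2 rose and 11 fell at an adjusted p under 0.05, which 27.4% of all genes passed. The line difference in the knockdown effect called 0 of 24 receptors, against 9.78% of all genes. The semaphorins without *SEMA6B* had an ES8 median of -0.14. Their line difference called 3 higher and 3 lower of 20, *SEMA6B* included.

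Other secretory granule genes had mostly lower values than *SCG5*. Of 32 genes listed, 14 were tested in the Rh30 knockdown, where 2 rose (*SCG5* included) and 4 fell at an adjusted p under 0.05, against 32.3% of all genes in either direction, and *SCG5* alone passed the fold requirement. The median of the others was -0.29. The convertase *PCSK2*, the partner of 7B2, held 0 to 5 counts per Rh30 library against 299 to 469 in ES8, where *SCG5* was nearly missing. The transporter gene *SLC18A1*, named after its values were seen, was the other gene of the list called in ΔRRM cells against sgCTL (log2 1.23, SE 0.28, edgeR adjusted p = 7.98e-05). Its mean over all libraries was under the 1 CPM set for naming list genes, so its level was low. In ES8, 1 of the 23 genes tested rose and 6 fell after knockdown at an adjusted p under 0.05, a share close to the 27.4% of all genes. Of the 11 epithelial markers tested, 5 were called higher in the Rh30 knockdown, where 0.767% of all genes were, and 1 other fell at an adjusted p under 0.05. In ΔRRM cells against sgCTL 5 of 11 were called higher, where 6.66% of all genes were. A marker near the floor with sgCTL could pass the filter only through the group where it was high. Such a marker had to come out higher, so nothing is read from these shares. *KRT8*, an intermediate filament gene, had 28 to 41 counts in Rh30 sgCTL libraries, 284 to 486 with sgDNAJC17 and 296 to 354 in ΔRRM libraries. The 17 epithelial markers summed to 267 to 288, 289 to 313 and 338 to 369 CPM in the 3 groups, with 7, 0 and 1 of them at no more than 3 counts in every library of the group, and their part in the level of *SCG5* was not tested.

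*ATP1B1*, a beta subunit of the sodium pump that FXYD proteins bind, gave -0.04 on the log2 scale in the Rh30 knockdown (SE 0.06, edgeR adjusted p = 0.701), where *FXYD6* was low. It was lower in ΔRRM cells against sgCTL, at -0.39 (SE 0.06, adjusted p = 3.84e-07), where *FXYD6* overlapped the control. *FXYD6* was the sole gene of the 8 tested in this list that was called in the knockdown, while 1 of the 8 rose and 3 fell, *FXYD6* included, at an adjusted p under 0.05 (32.3% of all genes passed). *FXYD2*, the neighbour of *FXYD6* on the same strand and 48788 bases away, held 17, 14 and 5 counts with sgCTL, 4, 2 and 0 with sgDNAJC17 and 18, 10 and 22 in Rh30 ΔRRM libraries. These groups had the order seen in *FXYD6*, at counts too low for a test of the knockdown.

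The relatives of *ABTB3* had smaller values. *ABTB1* gave -0.40 in the Rh30 knockdown (SE 0.10, edgeR adjusted p = 0.00629) and *ABTB2* gave -0.07 (adjusted p = 0.638). Of the 12 genes of the ABTB family and BTB ubiquitin ligases, 2 rose and 4 fell at an adjusted p under 0.05 (32.3% of all genes passed), with *ABTB3*, chosen on this contrast, the sole call. Of the 15 postsynaptic scaffold genes tested, 6 fell and 0 rose at an adjusted p under 0.05, all by less than 2-fold, with a median of -0.15 over the list. Of all genes, 2501 of 15391 were lower at that threshold. Of the 17 neuronal markers, 2 were tested in Rh30 and 1 of them fell. The Rh30 line markers had 1 gene higher and 3 lower of 11 tested, and the ES8 line markers 1 higher and 0 lower of 4, at the threshold that 32.3% of all genes passed.

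Of the genes that start within 100 kb of a member, *GREM1*, 76298 bases from *SCG5* and on the same strand, was higher in the Rh30 knockdown by 0.42 on the log2 scale (edgeR adjusted p = 0.000192), and *ARHGAP11A*, 26532 bases away, gave -0.10 (adjusted p = 0.254). *GOLGA8N*, a member of a family of near-identical copies whose counts are uncertain, gave 0.01 after knockdown and -1.11 in ΔRRM cells against sgCTL (adjusted p = 2.34e-06). *HDGFL2* and *TNFAIP8L1* near *SEMA6B* were lower by -0.28 (adjusted p = 0.00933) and -0.32 (adjusted p = 0.0126), short of the -1.49 of *SEMA6B*. The 2 genes near *ABTB3* had no count in any library.

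The genes with the nearest profiles over the 18 libraries were found by the root-mean-square difference of centred log2 CPM among 12576 protein-coding genes with a mean of at least 1 CPM. A smaller value marks a nearer profile. For *SEMA6B* they were *FRMD4A* (0.29), *FAM83H* (0.29) and *CEP170B* (0.30). For *ABTB3* they were *KIF26B* (0.43), *SOX8* (0.44) and *RGMA* (0.45), and for *FXYD6* *HOXC11* (0.41), *TRIB2* (0.45) and *HTRA1* (0.45). For *SCG5*, *TM4SF1* (0.57) and *TNFRSF12A* (0.58) were among them, with knockdown log2 fold changes of 0.14 and 0.28 in Rh30. The libraries share line and treatment, so a near profile is a description only.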

How the data were processed

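The authors deposited 1 table of raw read counts per gene and library, made, per the labels, from polyadenylated RNA with Trimmomatic 0.36, STAR 2.5.2b and featureCounts of Subread 1.5.2 on GRCh38. The study's methods name an older build, but the table's own starts lay within 1 kb of GRCh38 for 85.3% of 18960 protein-coding genes, and of GRCh37 for 4.04%. Whether counting used strand was not given in the sources used here. Symbols were matched for 55082 genes, and 2418 had none. Precision is limited by library totals of 35342393 to 48245989 counts.

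The tests came from edgeR 4.0.16 under R 4.3.3 (TMM, filterByExpr, quasi-likelihood test, Benjamini-Hochberg adjustment over all genes tested), on the 6 libraries of each pair of groups, or 12 for differences between lines. CPM were scaled by TMM over all 18 libraries. A call needed a change of 2-fold or more with an adjusted p under 0.05 (adjusted p alone between lines in their response). On data simulated for the Rh30 knockdown, 200 of 200 changed genes were recovered among 15388, with 0 false calls. The simulation gave every gene the same small dispersion. It changed only genes with ample counts, by more than the fold requirement, so full recovery was favoured. Recovery in the other contrasts was not tested. Nothing is read from these numbers for genes with few counts or small fold changes. The gene picks and lists, taken from general knowledge, were made with earlier results of these data known, so they are no independent evidence. The lists covered secretory granule genes, the sodium pump and FXYD proteins, semaphorin ligands, their receptors and effectors, the ABTB family with BTB ubiquitin ligases, postsynaptic scaffolds, and neuronal, Rh30, ES8 and epithelial markers. Named beside the members and *DNAJC17* were direct partners, called list genes with a mean of at least 1 CPM, genes starting within 100 kb and the 3 nearest profiles. Some genes that this rule names are not reported here. Alternatives were an adjusted p under 0.01, no fold requirement, DESeq2 1.42.0, its size factors in edgeR, library size alone, no filter, a minimum of 10 counts per library, 1 fit over all libraries, a block for the replicate letter, and the omission of each library in turn. Python 3.11.15, numpy 2.4.6, pandas 2.3.3 and matplotlib 3.10.9 were also used.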

Additional observations from a re-analysis of the deposited data

Results flagged for a closer look

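The knockdown effect differed between the lines for *FXYD6* (-1.94), *ABTB3* (-2.06) and *SEMA6B* (-1.63), as Rh30 minus ES8 on the log2 scale in the contrast of line with sgDNAJC17 over 12 libraries. These differences helped choose the genes, so no test is attached to them here. All 3 were lower after knockdown in Rh30 in each of 3 libraries, and their ES8 log2 fold changes lay between -0.08 and 0.15.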

How the results depend on the processing

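With no fold requirement, 3 in place of 1 of the 4 members were called in Rh30 ΔRRM cells against sgCTL and 4 in place of 2 against the knockdown. Fitting all libraries together called 1 in place of 0 members in the ES8 knockdown (*SCG5*, then tested, at 1.27). *SCG5* passed the filter of that fit only through its Rh30 counts, so nothing is read from this call. In the difference of the ΔRRM effect between lines, *SEMA6B* made the count 1 in place of 0 with DESeq2, its size factors, library size alone, no filter or a replicate block, and the count ran from 0 to 1 when 1 library was left out (1 without ES8 ΔRRM A, Rh30 sgCTL C or Rh30 ΔRRM C). In that contrast *FXYD6* took the other sign at -0.00771 with DESeq2, -0.00805 with its size factors, -0.196 with library size alone and -0.0264 with all libraries in 1 fit, and ran from -0.0443 to 0.0626 without 1 library, while *ABTB3* was 0.0202 with at least 10 counts and ran from -0.107 to 0.0845. Library size alone gave -0.102 for *FXYD6* in Rh30 ΔRRM cells against sgCTL and -0.0331 for *ABTB3* in the ES8 knockdown, where leaving out 1 library gave -0.0885 to 0.0704. These values lie near 0, and the cause of each change was not tested. All 4 members stayed called in the Rh30 knockdown under every alternative, with *SCG5* at 1.75 to 1.81, *FXYD6* at -2.10 to -2.05, *ABTB3* at -2.13 to -2.07 and *SEMA6B* at -1.55 to -1.49, and when any 1 library was left out. Over all genes, the Rh30 knockdown count of 239 became 145 at an adjusted p under 0.01, 4974 without the fold requirement and 123 with at least 10 counts. The other counts without the fold requirement were 10626 for 1540 (ΔRRM against sgCTL in Rh30), 9181 for 1192 (against the knockdown), 4701 for 334, 30 for 6 and 2516 for 336 (the same 3 contrasts in ES8, knockdown first) and 15690 for 9129 (sgCTL between lines), and adding the requirement to the line differences gave 239 for 1848 and 1255 for 7803. A minimum of 10 counts gave 787, 175, 211, 4868 and 6090 (ΔRRM against knockdown in Rh30, knockdown and ΔRRM against knockdown in ES8, and the lines in sgCTL and ΔRRM, the last from 10368), and an adjusted p under 0.01 gave 176 and 145 in those ES8 contrasts and 586 in the knockdown difference between lines. In ES8, no filter gave 526 for the knockdown and 32 for ΔRRM against sgCTL, the latter being 10 by DESeq2, 11 with the block and 2 to 16 without 1 library, and the knockdown difference between lines fell to 1009 at the lowest, without ES8 sgCTL C. Same-letter deviations in the Rh30 knockdown correlated at 0.203, 0.072 and 0.0975 over all genes tested, not all over 0.1, and at 0.869, 0.625 and 0.63 over genes above 50 CPM, so whether the letters pair those libraries is unsure. The labels name no shared batch, and the other contrasts had negative correlations for some letters. The main fits have no block, and the replicate block gave 130 higher and 137 lower genes in the Rh30 knockdown in place of 118 and 121 and changed no member's call other than that of *SEMA6B* above. Members with few counts, above all *SCG5* in ES8 at 4 to 14, are limited by depth.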
